A study of Homo sapiens and Mus musculus with 160 samples.

Results

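The length of time that a transcript stays on chromatin was set against its lifetime in the whole cell in NIH-3T3, a line of mouse embryonic fibroblasts. The measure is the ratio of the chromatin half-life to the whole-cell half-life of the same gene. A gene entered when both half-lives had a value in both replicate tables, lay below 6800 minutes and had a 95% credible interval of at most 4-fold. This left 11345 of 12151 genes with both half-lives in both tables, of 17985 mouse genes listed. Another 806 genes with values failed a limit.

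Chromatin RNA and whole-cell RNA came from untreated NIH-3T3 cells of the wild-type label, each labelled for 0, 15, 30, 60 or 120 minutes in 2 replicates. The new RNA was read through TimeLapse chemistry, which turns an incorporated uridine analog into a mismatch in sequencing reads. Untreated K562 cells, a human chronic myelogenous leukaemia line, were labelled for the same times in 2 replicates and serve as the comparison. The sample codes in the labels differ between the NIH-3T3 chromatin samples and the other NIH-3T3 fractions, whereas the K562 fractions share their codes. What the codes stand for is not given in the sources used here, so in NIH-3T3 the fraction and the code cannot be told apart.

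RNA polymerase II transcripts are made and mostly spliced while tethered to chromatin. They are then released, exported through nuclear pores, translated on ribosomes and finally degraded in the cytoplasm. The half-life of RNA in the whole cell covers this entire path, so that the ratio asks how much of a transcript's lifetime is passed at its first step. Each half-life was fitted from its own fraction, so a ratio above 1 can occur and cannot be read as a share.

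Each half-life below is the mode of the posterior that the authors fitted, in minutes, with replicate 1 before replicate 2. An interval is the authors' 95% credible interval, and the bounds of a ratio divide the lower chromatin limit by the upper whole-cell limit and the reverse. The number of reads behind a value is unknown here. Members had median interval widths of 1.26-fold and 1.27-fold for chromatin and 1.38-fold and 1.31-fold for whole-cell half-life. All 6 fibroblast markers were members (Col1a1, Col1a2, Fn1, Vim, Pdgfrb, Thy1), and none of 5 erythroid markers (Gata1, Klf1, Hba-a1, Hbb-bt, Epor) had both half-lives in both tables.

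For most transcripts the chromatin half-life was shorter than the whole-cell half-life but of the same order. Members had a median of 51 and 70 minutes on chromatin, against 110 minutes in the whole cell in both replicates. The ratio had a median of 0.5 in replicate 1 and 0.673 in replicate 2, and of 0.579 for the mean of the log2 ratios (quartiles 0.435 and 0.756). It exceeded 0.5 in 49.0% and 74.2% of members and exceeded 1 in 4.69% and 15.7%. Genes close to the median included Ube3a, a ubiquitin ligase gene, with 43 and 52 minutes on chromatin against 81 and 83 in the whole cell, and Cald1, an actin-binding protein gene, with 140 and 200 against 290 and 290.

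The replicates differed by a shift common to most genes. The ratio was higher in replicate 2 for 87.3% of members, by a median of 0.45 on the log2 scale. Chromatin half-lives carried this shift (median log2 difference 0.46), while the median shift of whole-cell half-lives was 0. The order of genes was retained in part, with a Spearman correlation of 0.765 and a Pearson correlation of 0.715 between replicates across the 11345 genes, which are not independent observations. The ratios agreed within 2-fold for 91.4% of members. A gene's absolute ratio thus depends on the replicate, and its place among genes was kept only in part.

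**Figure D1:**
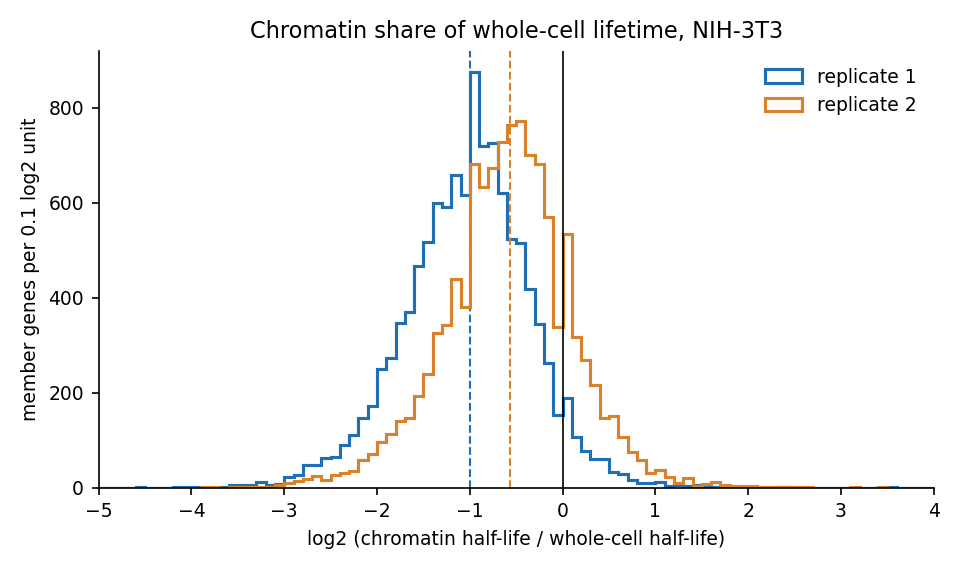
Distribution of the log2 ratio of chromatin to whole-cell half-life over 11345 member genes, in bins of 0.1 log2 unit, for replicate 1 (blue) and replicate 2 (orange). Dashed lines mark the medians (ratios of 0.5 and 0.673), the solid line marks a ratio of 1, and 16 values lie beyond the axis. Replicate 2 lies to the right of replicate 1, and both have most genes below 1.

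A gene was counted as longer or shorter on chromatin when the 2 intervals did not overlap, in the same direction, in both replicates. By this rule 6373 members (56.2%) had a shorter and 102 (0.899%) a longer chromatin half-life. Over all 12151 genes with values the shares were 52.7% and 0.872%. Replicate 2 alone gave 648 longer members, and 133 members had intervals apart in opposite directions in the 2 replicates. With limma, fitted on the log2 half-lives of all 12151 genes (2 chromatin against 2 whole-cell values, adjusted p under 0.05), 5342 members were shorter (47.1%, against 46.3% of all genes fitted) and 31 longer (0.273%, against 0.593%). Of the 102 longer members 11 passed limma, and of the 6373 shorter ones 4793 did. No gene passed limma without chromatin replicate 1, where 5473 members had an unadjusted p under 0.05. Without whole-cell replicate 1 or 2, limma gave 1716 and 1681 shorter members.

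Transcripts with the smallest ratios encoded mainly small proteins of the ribosome and of the respiratory chain. Rpl41, encoding a protein of the large ribosomal subunit, had 11 and 16 minutes on chromatin against 170 and 190 in the whole cell, and ratios of 0.0647 (bounds 0.0588 to 0.0750) and 0.0842 (0.0750 to 0.0944). Both chromatin values lay far below both whole-cell values, with a limma log2 difference of -3.76 (SE 0.30, adjusted p = 1.45e-05). Ndufa6, a subunit gene of respiratory complex I, had 7.4 and 11 minutes against 120 and 120.

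Ratios near 0.1 also occurred with longer half-lives. Rpl12 had 36 and 35 minutes on chromatin against 420 and 390 in the whole cell, and Rps27a, which encodes a ubiquitin fused to a ribosomal protein, had 61 and 66 against 550 and 560. With posterior means the mean ratio of Rps27a was 0.0571, against 0.114. Ndufc1, a further complex I gene, had 100 and 170 against 1000 and 1300. Thus the smallest ratios were not tied to one range of chromatin half-life. Genes outside these complexes among the 12 smallest were Anapc13 of the anaphase-promoting complex (30 and 31 against 310 and 450 minutes), the kinase gene Cdkl3 (22 and 16 against 280 and 160) and Bola3, which takes part in iron-sulfur cluster assembly (17 and 20 against 160 and 160).

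As groups, cytosolic ribosomal protein genes had a median ratio of 0.203 and 0.260 (82 members of 84 listed). Of these, 81 were shorter on chromatin and none was longer, against 56.2% shorter among all members. The exception was Rps27l, a paralog of Rps27 (170 and 200 against 210 and 280 minutes), whose intervals overlapped. The list's median half-lives were 124 minutes on chromatin and 522 in the whole cell, both above those of all members (59.9 and 106 minutes, geometric means of both replicates). Many of these genes have processed pseudogenes, and how reads shared with copies were assigned is not given in the sources used here. Mitochondrial ribosomal proteins had median ratios of 0.273 and 0.372 and nuclear-encoded respiratory chain genes 0.259 and 0.339, with 72 of 78 and 72 of 79 members shorter and none longer. Mrpl42 marked the low end of the mitochondrial ribosome (18 and 25 against 170 and 160 minutes). Sdha, the flavoprotein of complex II, was near the high end of the respiratory chain (190 and 280 against 380 and 360).

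**Figure D2:**
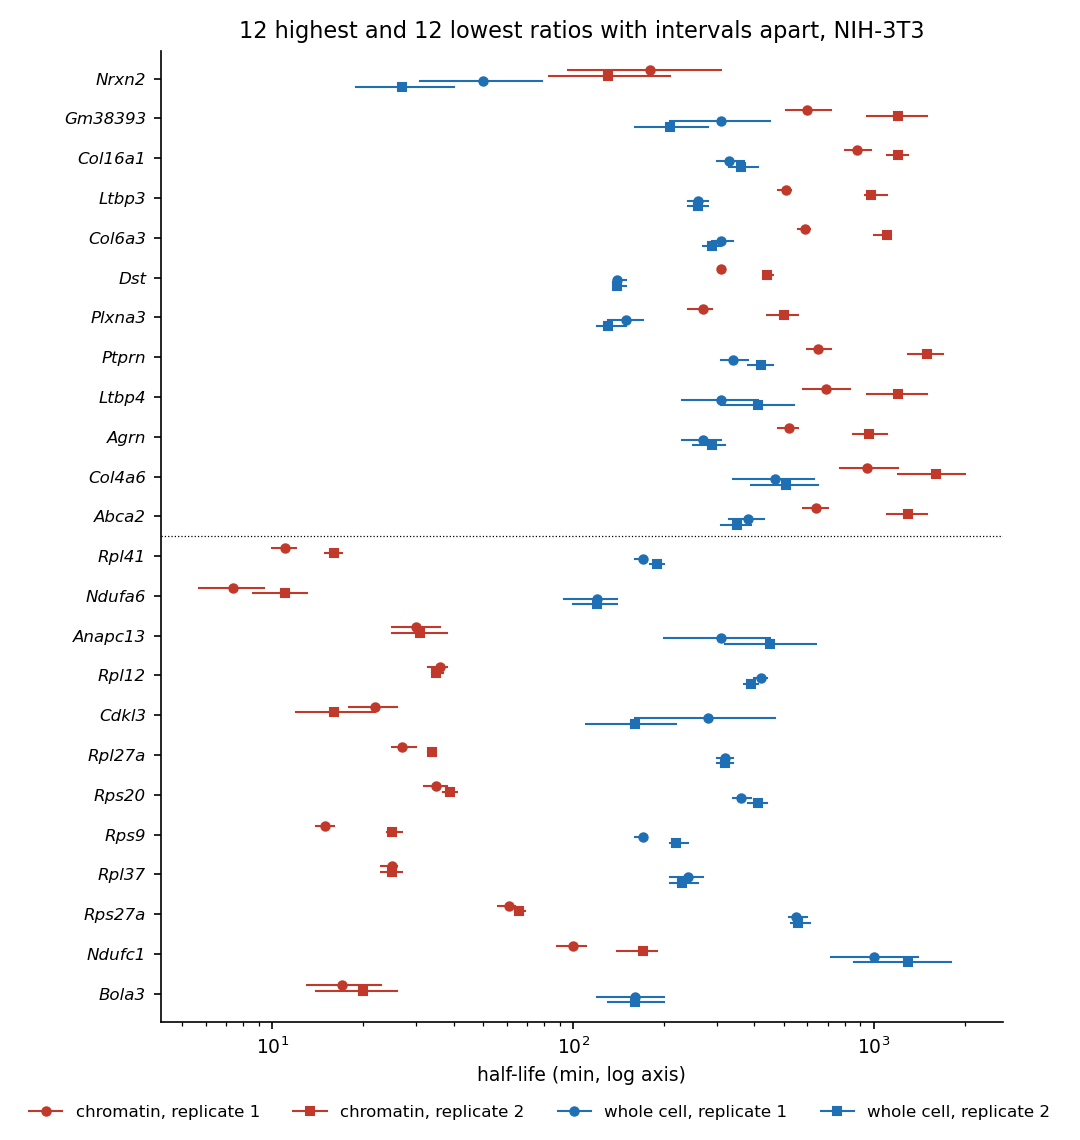
Half-lives in minutes (log axis) on chromatin (red) and in the whole cell (blue) for the 12 members with the highest and the 12 with the lowest mean ratio among those with intervals apart in both replicates. Circles are replicate 1, squares replicate 2, and bars the authors' 95% credible intervals. Chromatin values lie right of whole-cell values for the highest members and left of them for the lowest.

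At the other end, genes of the extracellular matrix stood out by long chromatin half-lives. Col16a1, encoding a fibril-associated collagen, had 880 and 1200 minutes on chromatin against 330 and 360 in the whole cell, with ratios of 2.67 (2.16 to 3.27) and 3.33 (2.68 to 3.94). Both chromatin values exceeded both whole-cell values, and the limma log2 difference was 1.58 (SE 0.58, adjusted p = 0.0386). Col6a3, a chain of the microfibrillar collagen VI, had 590 and 1100 minutes against 310 and 290. With posterior means in place of modes its mean ratio was 0.970, against 2.69. Its posterior mean in the whole cell was 2000 minutes in replicate 2, outside its interval of 270 to 310. Col4a6, a basement membrane collagen chain, had 950 and 1600 against 470 and 510, and its limma adjusted p was 0.106.

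Of the 42 collagen genes listed, 20 were members, and the list had the highest median ratio of any list examined (1.31 and 1.999). Among the 2 collagen members with all half-lives between 15 and 120 minutes the median mean ratio was 0.758, against 1.67 for all 20. In 18 of these the mean ratio exceeded 1. Limma called 4 of the 20 collagen members longer, against 0.273% of all members. The intervals of the 20 were apart with chromatin longer in 11 (55%), against 0.899% of all members, and with chromatin shorter in 1. That gene was Col8a1, a short-chain collagen, with 60 and 83 minutes against 96 and 94. The fibrillar collagen genes Col1a2 (310 and 440 against 230 and 230 minutes) and Col3a1 (230 and 310 against 180 and 190) were longer on chromatin. For Col1a1 the intervals overlapped in replicate 1 (470 and 720 against 450 and 380 minutes). The median half-lives of the list were 460 minutes on chromatin, 282 in the whole cell, 402 in the nuclear fraction and 12.7 in the cytoplasm.

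Matrix glycoproteins and remodelling enzymes had median ratios of 0.838 and 1.25 (52 members). Here 4 members were longer on chromatin (7.69%, against 0.899% of all members), while limma called 1 longer. The matrix protease gene Adamts1 (25 and 27 against 40 and 40 minutes) was the 1 shorter member (1.92%, against 56.2%). The 2 intervals of most members of this list overlapped in at least 1 replicate. Hspg2, encoding the proteoglycan perlecan, had 680 and 1300 minutes against 390 and 400, and Tnc, encoding tenascin C, had 670 and 830 against 390 and 410. Fn1, the fibronectin gene, had 910 and 1600 against 730 and 740. Igfbp7, a secreted growth factor binding protein gene, shows the spread between replicates, with 240 and 880 against 820 and 700 minutes. Among genes outside both lists, Ltbp3 and Ltbp4, whose products hold latent TGF-beta in the matrix, had 510 and 980 against 260 and 260 minutes and 690 and 1200 against 310 and 410. With posterior means the mean ratio of Ltbp3 was 5.38, against 2.72. Agrn, the gene of the proteoglycan agrin, had 520 and 960 against 270 and 290.

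**Figure D3:**
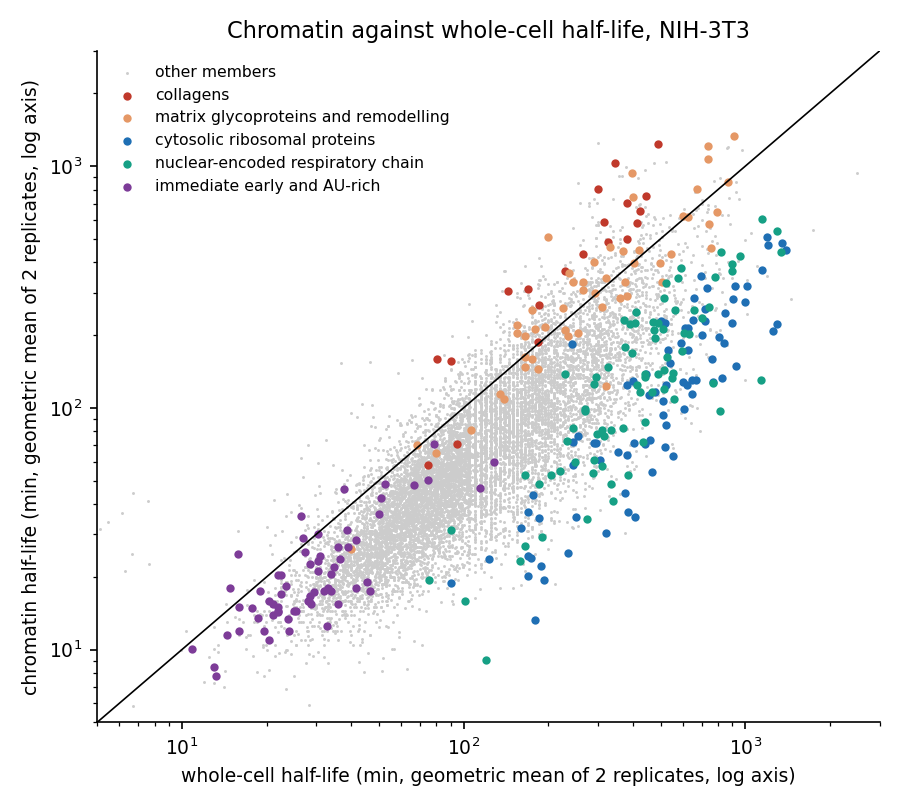
Chromatin half-life against whole-cell half-life of the members, both in minutes on log axes and as geometric means of 2 replicates, with 5 gene lists in colour and the line of equal half-lives. Collagen genes lie mostly above the line and ribosomal protein and respiratory chain genes below it, and 10 members with a value under 5 minutes lie outside the axes.

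Chromatin half-lives above the whole-cell value were not limited to secreted proteins. Of the 102 longer members, 32 belonged to a list examined and 70 to none. Dst, the gene of the giant cytolinker dystonin, had 310 and 440 minutes on chromatin against 140 and 140 in the whole cell. Flna, encoding an actin-crosslinking protein, had 760 and 1400 against 500 and 450 minutes. In the list of actin and contractile genes 9 of 45 members were longer (20%, against 0.899% of all members). Another 25 were shorter (55.6%), close to the 56.2% of all members. Limma called 1 member of the list longer and 18 shorter. At its low end were the myosin light chain genes Myl12a (60 and 83 against 430 and 440 minutes) and Myl6 (96 and 120 against 430 and 540).

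Membrane protein genes among the 12 highest were Plxna3, a semaphorin receptor (270 and 500 against 150 and 130 minutes), Abca2, a lipid transporter (640 and 1300 against 380 and 350), Ptprn, a phosphatase-like protein of secretory granules (650 and 1500 against 340 and 420), and Nrxn2, a neurexin (180 and 130 against 50 and 27). Nrxn2 had the highest mean ratio of any member whose modes all lay inside their intervals, 3.60 (1.22 to 10) and 4.81 (2.08 to 11.1). Gm38393, a predicted gene, had 600 and 1200 against 310 and 210 minutes.

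The genes named from the next lists lie near their high and low ends. Quartiles of the mean ratio were 0.273 and 0.625 in the core spliceosome, against 0.435 and 0.756 over all members. They were 0.381 and 0.584 in translation factors, 0.477 and 0.739 in splicing regulators and 0.602 and 0.911 in histone and DNA modifiers. By intervals, 56.2% of all members were shorter on chromatin and 0.899% longer. Limma called no member of these lists longer. In the core spliceosome Prpf8, its largest component, had 310 and 410 minutes on chromatin against 280 and 270 in the whole cell, and was the single longer member. Snrpd3, an Sm core protein gene, had 38 and 57 against 300 and 270, and 45 of 54 members were shorter. Among translation factors the scaffold genes Eif4g1 (420 and 690 against 340 and 340 minutes) and Eif4g3 (210 and 330 against 160 and 190) were longer, whereas 47 of 59 were shorter, such as Eif3i (40 and 73 against 220 and 240). Splicing regulators had 1 longer member, Srrm2 (190 and 270 against 130 and 130), and 51 of 66 shorter, such as Srsf3 (9.4 and 13 against 41 and 46). Histone and DNA modifiers had median ratios of 0.684 and 0.800, with 3 longer and 28 shorter of 59. The histone methyltransferase genes Kmt2a (89 and 96 against 68 and 66 minutes) and Kmt2d (130 and 150 against 98 and 98) were longer, and the deacetylase gene Hdac2 (80 and 120 against 270 and 250) was shorter.

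Genes for protein entry into and folding in the endoplasmic reticulum had median ratios of 0.592 and 0.887. The chaperone gene Hyou1 was longer by intervals but not by limma (280 and 420 against 210 and 290 minutes). Of 46 members 20 were shorter (43.5%, against 56.2% of all members). Among these was the signal recognition particle gene Srp19 (20 and 28 against 160 and 160 minutes). Proteasome subunits had median ratios of 0.337 and 0.538 and were shorter in 40 of 44 members. In glycolysis 10 of 21 members were shorter (47.6%) and none was longer, against 56.2% and 0.899% of all members. The lowest was Gapdh (190 and 290 against 690 and 690 minutes). Cholesterol biosynthesis had 15 of 28 members shorter (53.6%) and none longer, close to the shares of all members. Idi1, an isomerase gene of that pathway, had 48 and 65 against 170 and 150 minutes, and Fasn, the fatty acid synthase gene included with it, had 190 and 250 against 190 and 180.

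Lists with a median whole-cell half-life below that of all members (106 minutes) did not share one ratio. Immediate early and AU-rich genes had median half-lives of 17.8 minutes on chromatin and 28.4 in the whole cell and median ratios of 0.600 and 0.774, above those of all members. Of these, 31 of 64 were shorter on chromatin (48.4%, against 56.2% of all members). None was longer, against 0.899% of all members. Gadd45g, a stress response gene, had 26 and 24 minutes against 18 and 14, with overlapping intervals. Btg1, an antiproliferative gene, had 17 and 18 against 44 and 49. Replication-dependent histones had longer median half-lives than that list, 36.3 minutes on chromatin and 80.5 in the whole cell. Their median ratios were 0.447 and 0.474, and they were shorter in 50 of 55 members (90.9%). They were the list whose medians differed least between replicates. Genes named Zfp, Zkscan or Zscan, most of which encode C2H2 zinc-finger proteins, had median ratios of 0.493 and 0.649 (358 members). These ratios were close to those of all members, although the whole-cell half-lives of the list were short (median 42.4 minutes). Of the list 195 were shorter (54.5%) and none longer, also close to all members.

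The remaining lists lay near the median of all members. Mitotic genes had 33 of 45 members shorter on chromatin, with the cell division gene Birc5 (17 and 30 against 120 and 110 minutes) at the low end and Mki67, encoding a coat protein of mitotic chromosomes, near the high end (140 and 170 against 140 and 130). Nuclear pore and mRNA export genes had 34 of 52 shorter, with Nup155 (190 and 280 against 170 and 190) near the high end and Thoc7 (27 and 29 against 110 and 110) near the low end. In the p53 target list 21 of 28 were shorter, in the ATF4 program 14 of 28, and in the circadian clock 9 of 21, around the 56.2% of all members. None of these 5 lists had a longer member, against 0.899% of all members. Atf4 itself had 17 and 19 minutes against 41 and 46. Of the long noncoding RNAs and snoRNA hosts, 1 was a member, Snhg4, with 180 and 250 minutes on chromatin against 280 and 260 in the whole cell.

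**Figure D4:**
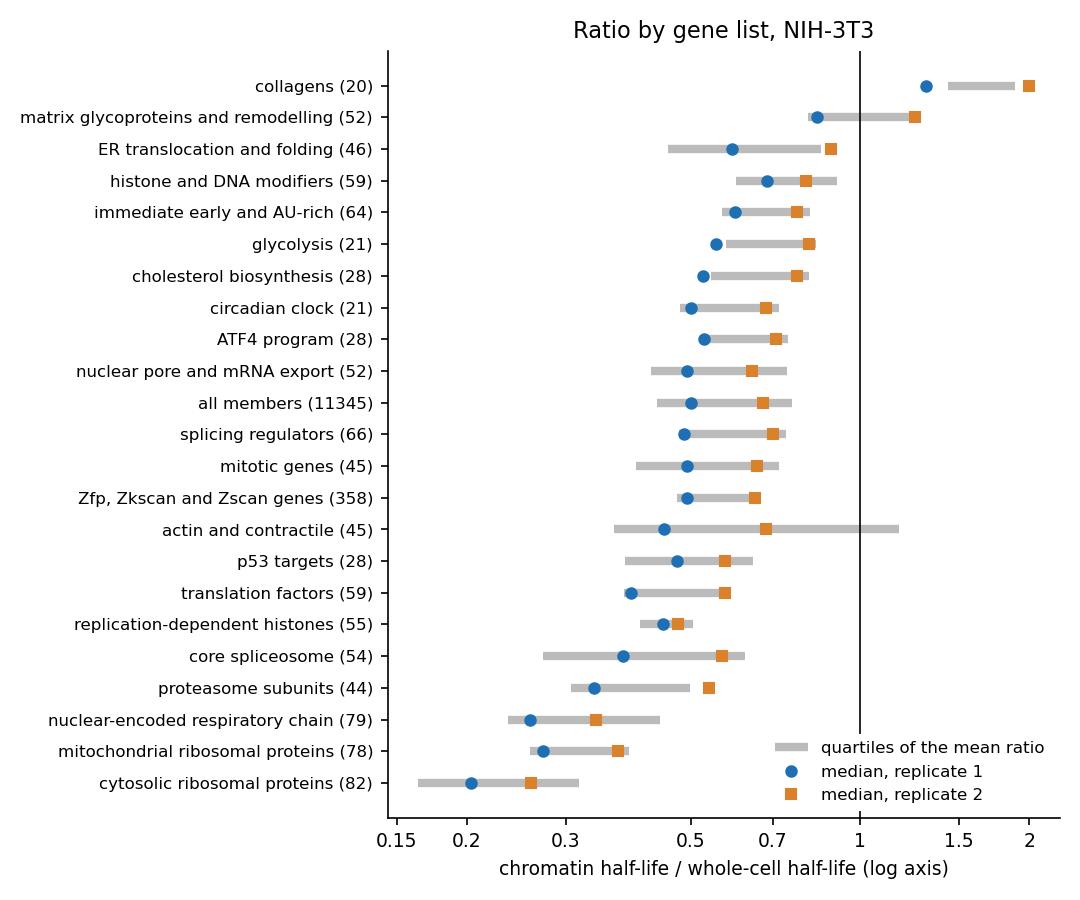
Ratio of chromatin to whole-cell half-life (log axis) by gene list, with the number of members in brackets. Points are list medians in replicate 1 (blue) and replicate 2 (orange), and grey bars span the quartiles of the mean ratio. Collagens lie above 1 in both replicates and cytosolic ribosomal proteins lowest.

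The ratio was also set beside the coding length of the human gene of the same symbol, taken from GENCODE 29 (GRCh38). No mouse annotation was used, so the length is a proxy, and 10059 members (88.7%) had one. Only 29 of the 358 Zfp, Zkscan and Zscan members had a length, and none of the 55 replication-dependent histones did. The histones are thus absent from the results by length. The ratio increased with coding length in both replicates. In the decile of shortest coding sequences (median 444 nucleotides) the median ratio was 0.303 and 0.431, and in the decile of longest (median 4863 nucleotides) it was 0.758 and 0.968. Spearman's rho across genes was 0.551 in replicate 1 and 0.509 in replicate 2. Members of the shortest decile were shorter on chromatin in 81.2% of cases and those of the longest in 28.0%. Of the 100 longer members with a human length, 80 fell into the longest decile, and their median coding length was 6504 nucleotides against 1449 for all members.

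Other lengths were less closely related to the ratio. For the mean ratio rho was 0.557 with coding length, 0.404 with the number of exons, 0.390 with mRNA length and 0.293 with the genomic span of the gene, all over the same 10059 genes and correlated with one another. Within quartiles of exon number, rho with coding length lay between 0.360 and 0.517. Within quartiles of coding length, rho with exon number was between -0.061 and 0.259 and rho with genomic span between -0.032 and 0.175. The relation was also present outside the lists (rho 0.532, 9107 genes) and among genes whose 4 half-lives lay between 15 and 120 minutes (rho 0.453, 4880 genes). Coding length had a rho of 0.198 with the chromatin half-life and -0.111 with the whole-cell half-life. Some lists lay off the decile that holds their own median length. Ribosomal protein genes (456 nucleotides) had a median mean ratio of 0.220, against 0.364 in the shortest decile, and collagen genes (4910 nucleotides) 1.67, against 0.853 in the longest. Histone and DNA modifiers (3981 nucleotides) had 0.745, also against 0.853. Matrix glycoproteins (2198 nucleotides) had 1.001, against 0.658 in their decile, and endoplasmic reticulum genes (894 nucleotides) 0.756, against 0.484. Mitochondrial ribosomal proteins (591 nucleotides) had 0.310, against 0.4345. Actin and contractile genes (1128 nucleotides) were close to their decile with 0.548, against 0.526, as were splicing regulators (1428 nucleotides) with 0.573, against 0.553.

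**Figure D5:**
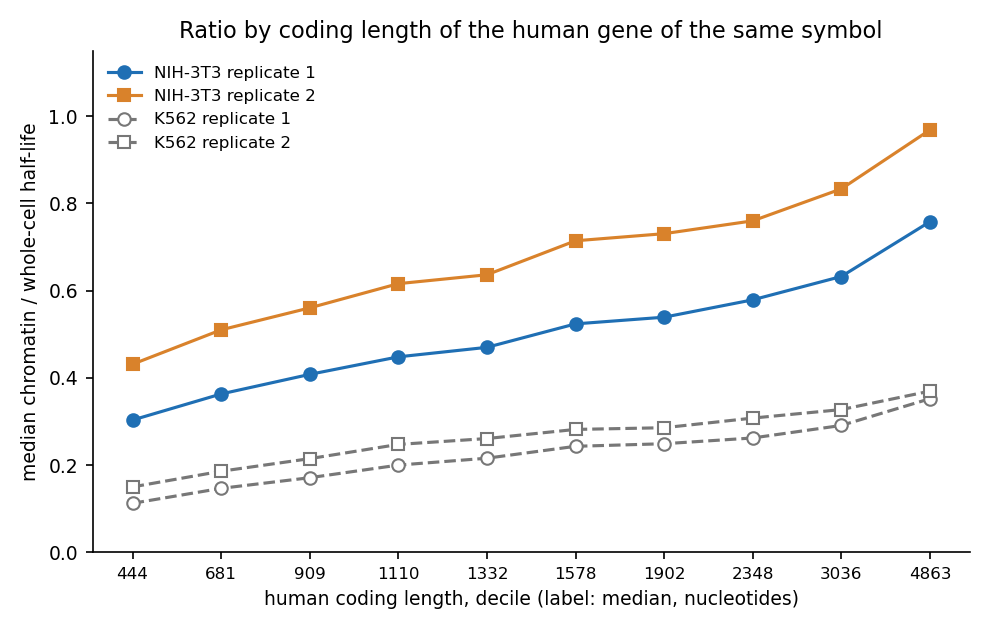
Median ratio of chromatin to whole-cell half-life in deciles of the coding length of the human gene of the same symbol, with each decile's median length in nucleotides on the horizontal axis. NIH-3T3 replicates (blue, orange) have 1005 or 1006 genes per decile, and K562 replicates (grey, open) show those that also met the limits in K562. All 4 series increase from the shortest to the longest decile, and NIH-3T3 lies above K562 throughout.

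The ratio was next set beside the half-lives that did not enter it. It had a Spearman correlation of -0.378 with the cytoplasmic half-life (11252 members), 0.195 with the nuclear half-life and -0.133 with the export half-life, over genes measured in the same cells. In the quartile of shortest cytoplasmic half-lives the median mean ratio was 0.696, and in the quartile of longest it was 0.452. The 102 longer members had a median nuclear half-life of 280 minutes and a cytoplasmic one of 15.5 minutes, against 66.0 and 39.0 minutes for the 6373 shorter ones. Both classes were chosen by their chromatin and whole-cell half-lives, so these medians are a description.

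Many of these half-lives exceed the labelled times. All 4 half-lives lay above 120 minutes in 76 of the 102 longer members. Within the 5614 members whose half-lives all lay between 15 and 120 minutes, 8 (0.143%) were longer and 3245 (57.8%) shorter on chromatin, with median ratios of 0.521 and 0.677. In that range lay 2 of the 20 collagen members, with a median mean ratio of 0.758, and 4 of the 52 matrix glycoprotein members, with 0.790. Endoplasmic reticulum genes had 0.409 there, over 2 of 46 members, and glycolysis genes 0.861, over 4 of 21. Histone and DNA modifiers, with 48 of 59 members in the range, had 0.746. The authors' call of nuclear degradation applied to 508 members, with a median mean ratio of 0.533 against 0.579 for 10676 members without it. Of the called genes 22 (4.33%) were longer on chromatin, against 74 (0.693%) of those without the call, and 352 (69.3%) against 5988 (56.1%) were shorter. The call was taken from the replicate 1 table and draws on the same samples, so it is not independent of the ratio.

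The same ratio was much lower in K562 cells, a comparison across tables that the authors fitted separately. For 10512 K562 genes within the same limits, median half-lives were 45 and 50 minutes on chromatin and 210 and 200 in the whole cell. Those of the NIH-3T3 members were 51 and 70 minutes on chromatin and 110 and 110 in the whole cell. Whole-cell half-lives exceeded 120 minutes, the longest labelled time, in 71.3% and 70.1% of the K562 genes, against 41.8% and 42.7% of NIH-3T3 members. Over 8222 genes that met the limits in both lines the median ratio was 0.482 and 0.654 in NIH-3T3, against 0.219 and 0.260 in K562. For 8611 members with a partner of the same symbol, the median log2 difference of the ratio, NIH-3T3 minus K562, was 1.24. Limma on the log2 ratios of all 8842 shared symbols (2 against 2 tables) called 5579 members higher in NIH-3T3 (64.8%, against 64.2% of all symbols) and 97 lower (1.13%, against 1.40%). After each table was centred on its median, which removes the common shift, 1383 members were higher (16.1%, against 15.8% of all symbols) and 1227 lower (14.2% of either). No member passed without NIH-3T3 replicate 2, where 4221 had an unadjusted p under 0.05, and without K562 replicate 1 the counts were 2546 higher and 48 lower.

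Nsmce1, of the SMC5/6 complex, had 210 and 250 minutes on chromatin against 310 and 220 in the whole cell in NIH-3T3, and 66 and 94 against 1200 and 3000 in K562. Its log2 ratio was higher in NIH-3T3 by 4.40 (SE 0.49, limma adjusted p = 2.42e-11). The kinetochore gene Zwilch had ratios of 0.706 and 0.889 in NIH-3T3, against 0.0482 and 0.0771 in K562, and Polr2k, a shared RNA polymerase subunit gene, 0.773 and 0.833, against 0.0545 and 0.0756.

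Leng9 was at the other end, with ratios of 0.333 and 0.275 in NIH-3T3 and 4.42 and 3.07 in K562. Its log2 difference was -3.60 (SE 0.56, limma adjusted p = 2.22e-07). Adat2, of the tRNA adenosine deaminase, had 0.186 and 0.247 in NIH-3T3, against 0.917 and 1.35 in K562, and the stress response gene Gadd45b 0.272 and 0.533, against 1.02 and 2.44. All 3 remained lower after centring. Senp8, a deneddylase gene, had the lowest log2 difference of the genes named (-5.43), but its K562 whole-cell half-lives were 43 and 0.27 minutes, and 0.27 is the lowest value in the tables. Without K562 replicate 2 its difference was -1.54.

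Counts by gene list are to be read against the 64.2% of all symbols that were higher in NIH-3T3, or 15.8% after centring. In NIH-3T3 proteasome subunits had median ratios of 0.337 and 0.538, against 0.0747 and 0.0907 in K562, and 39 of 44 were called higher, or 31 after centring. Cytosolic ribosomal proteins had 0.202 and 0.259, against 0.0457 and 0.0718, with 68 of 81 higher, or 26 after centring. Core spliceosome genes were higher in 46 of 54, or 22 after centring, and translation factors in 50 of 53, or 26. Immediate early and AU-rich genes had 0.581 and 0.745, against 0.508 and 0.566 in K562. Of these, 7 of 45 were higher and 1 lower, and after centring none was higher and 18 were lower. Only 22 of the 358 Zfp, Zkscan and Zscan members had a partner of the same symbol in K562. Their ratios were 0.422 and 0.570, against 0.429 and 0.477 in K562, and none was called in either direction. After centring 16 of them were lower. The median log2 difference was 0.33 in the immediate early list and 0.06 in the 22 paired zinc-finger genes, against 1.24 for all members. Collagens had 4 members with a partner in K562, all called higher, or 1 after centring, and none that met the limits there.

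The coding length trend was present in K562 as well. Over 8130 genes that met the limits in both lines, rho of the K562 mean ratio with coding length was 0.396. The K562 median ratio was 0.112 and 0.15 in the shortest decile and 0.352 and 0.370 in the longest. Whole-cell half-life in NIH-3T3 had a rho of -0.083 with the NIH-3T3 ratio, of which it is the denominator, over 11345 members. In single replicates this rho was -0.146 and -0.008. With the K562 ratio it was -0.434, over the 8222 genes that met the limits in both lines.

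Npr1, a natriuretic peptide receptor gene, was just inside the interval limit of the rule (860 and 1800 minutes on chromatin against 300 and 300 in the whole cell), and Kirrel3 just outside (190 and 140 against 76 and 190). Acta2, the smooth muscle actin gene, had the longest half-life inside the limit (670 and 1300 against 2600 and 2400), and Gm20594 lay just outside at the upper bound of the fit, 6900 minutes. In 20 members at least 1 posterior mode lay outside its own interval, among them the extremes of the ratio, such as Zfp990 with 0.27 minutes on chromatin in both replicates against 10 and 14 in the whole cell. Without these 20 the ratios ran from 0.0738 to 4.16.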

How the data were processed

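RNA half-lives of chromatin and whole-cell fractions were taken from 4 tables deposited by the authors, 1 per cell line and replicate time course. Per the labels, RNA was TimeLapse-converted and sequenced with the SMARTer stranded kit. The submitters' processing notes name cutadapt 2.5, STAR 2.7.0a and the mm10 and hg38 builds. The deposited half-lives are posterior modes on an absolute scale of minutes (unit: other), beside posterior means and 95% intervals, rounded to 2 significant digits, not normalized between tables. Settings of the authors' fit are not given in the sources used here. Depth per sample is unknown, so precision rests on these intervals. A replicate is 1 table (n = 2). Whether replicates are separate cultures is not stated, so p-values measure only the spread between tables, which may be technical.

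Members, lists and tests were chosen with earlier results of these data known. Limma 3.58.1 (R 4.3.3, eBayes with trend, two-sided, Benjamini-Hochberg over all genes) compared log2 values with no pseudocount, and was tested on simulated data. The lines were paired by symbol ignoring case. Named were the 12 highest and 12 lowest members with intervals apart, the 3 highest and 3 lowest of each list, the 8 most different from K562 each way, 5 at the median, and the genes at each limit. The fibroblast markers were named besides, and Col3a1 was chosen after its values were seen. Alternatives changed the replicates, limits, point estimate, scaling and genes fitted.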

Additional observations from a re-analysis of the deposited data

Results flagged for a closer look

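The difference of the chromatin to whole-cell contrast between the lines was tested directly with limma, and genes past its threshold are given here as values. Altogether 5579 members (64.8%, against 64.2% of all symbols fitted) had a higher ratio in NIH-3T3 than in K562. A lower ratio was called in 97 (1.13%, against 1.4%). Both shares were close to those of all symbols, and after centring the counts were 1383 and 1227. The log2 differences, NIH-3T3 minus K562, of the highest members were 4.40 for Nsmce1, 3.90 for Rplp1, 3.83 for Slc9a3r2, 3.70 for Zwilch, 3.64 for Polr2k, 3.63 for Rps27l, 3.63 for Taf9b and 3.58 for Nae1. Those of the lowest were -5.43 for Senp8, -3.60 for Leng9, -2.86 for Swsap1, -2.38 for Adat2, -2.12 for F8, -2.12 for Borcs8, -2.11 for Pgghg and -2.05 for Gadd45b. After centring, Taf9b (adjusted p = 0.0529), Senp8 (0.123) and Swsap1 (0.15) no longer passed limma, and the whole-cell half-lives of Swsap1 in K562 were 70 and 1.1 minutes. Without K562 replicate 2 the log2 difference was -1.54 for Senp8, -0.02 for Swsap1 and -1.37 for F8, and Swsap1 and F8 no longer passed. With the replicate block, and with the posterior mean, Senp8 and Swsap1 did not pass. Without NIH-3T3 replicate 1, Senp8, Swsap1, F8, Pgghg and Gadd45b did not pass, and without NIH-3T3 replicate 2 none of the 16 did.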

How the results depend on the processing

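The median ratio of members lay between 0.494 and 0.593 under changed limits, point estimates and scaling, and between 0.5 and 0.673 in single replicates. Longer members by intervals numbered 129 without replicate 2 and 648 without replicate 1, against 102, and shorter ones 8898 and 6615, against 6373. In limma, fitting only members gave 79 longer and scaling replicate 2 to replicate 1 gave 73 longer and 8951 shorter, against 31 and 5342. Leaving out 1 chromatin or whole-cell value gave 0 to 48 longer and 0 to 5357 shorter. Against K562, centring gave 1383 higher and 1227 lower, the posterior mean 60 lower, and leaving out either replicate of a line 0 to 4835 higher and 0 to 48 lower, against 5579 and 97. The replicate block changed no count by over 1.5 times (45 longer, 5083 shorter, 5947 higher, 114 lower). Replicate numbers did not pair the samples by the data, since the correlation of chromatin with whole-cell replicate differences was 0.0107. Among the 24 highest and lowest genes, the posterior mean gave Col6a3 a ratio of 0.970 (otherwise 2.69), Ltbp3 5.38 (2.72), Rps9 0.0307 (0.1001) and Rps27a 0.0571 (0.114). In these 4 genes, and in 422 members altogether, at least 1 posterior mean lay outside its own interval. Within 15 to 120 minutes the list medians of collagens (0.758, otherwise 1.67, 2 genes), endoplasmic reticulum genes (0.409, otherwise 0.756, 2 genes) and glycolysis (0.861, otherwise 0.643, 4 genes) moved. The alternative without modes outside intervals, chosen after seeing the data, gave 102 longer, 6372 shorter and a median of 0.579. Precision for half-lives beyond 120 minutes is limited by the labelled times, and the depth is unknown.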
